A study of Mus musculus with 4 samples.

Results

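IL-1 family and inflammasome genes were followed through single cells of whole mouse kidney: 10 genes, found by symbol among the 32285 genes of the deposited counts. They are the ligands Il1b, Il1a and Il18, the antagonist Il1rn, the receptors Il1r1 and Il1r2, the inflammasome genes Nlrp3, Pycard and Casp1, and the cytokine Tnf. All 10 had UMIs (unique molecular identifiers, each standing for 1 captured transcript) in the cells kept, where 23722 genes did. A further 88 genes of the same pathways are described beside them. The scRNA-Seq data held 4 libraries, 1 library for each of 4 conditions. The libraries crossed genotype (WT, or SP, titled MT in the labels) with diet (ND or HFD). SP (Sweet Pee) mice were homozygous for a missense allele of Slc5a2, which encodes the glucose cotransporter SGLT2, in every cell of the body. All mice were male, of strain C3H (C3H/HeJ in the methods), and 18 weeks old, and had eaten ND or an HFD with 60% of calories from fat for 8 weeks, from the age of 10 weeks. C3H/HeJ mice carry a defective allele of Tlr4, the receptor for bacterial lipopolysaccharide, so that all 4 groups share it. How many mice went into a library is not given in the sources used here.

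IL-1β and IL-1α bind the receptor IL-1R1, which signals to NF-κB and turns on chemokines and adhesion molecules. IL-1Ra (from Il1rn) blocks that receptor, and IL-1R2 is a decoy that binds the ligand without signalling. IL-1β and IL-18 are made as precursors, which caspase-1 cleaves in inflammasomes built from a sensor such as NLRP3 and the adaptor ASC (from Pycard), so that transcript levels alone do not give the released cytokine.

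The libraries held between 90728590 and 115117649 UMIs over 13229 to 16385 barcodes, and 6389 to 9924 cells passed the limits on detected genes, mitochondrial UMIs and doublets. Barcodes with at least 50% mitochondrial UMIs made up 32.7% and 33.2% of the WT libraries and 49.8% and 42.1% of the SP libraries (ND first). Any pair of libraries shared 54 to 77 cell barcodes. Slc5a2, the mutated gene, was read first as a check of the labels: proximal tubule-like cells held it at 288 and 232 CPM in the WT libraries and at 41.5 and 81.2 CPM in the SP libraries (ND first). CPM is a gene's UMIs pooled over all cells of a class, scaled to a class total of 1000000 UMIs. Clusters were named from marker lists, and each class name below means cells like that type; 7 clusters (2, 9, 21, 24, 30 and the immune clusters i8 and i12) met no name and are called by their numbers. Neutrophils held 5418, 7371, 7352 and 4754 UMIs of S100a8 and S100a9 and at most 2 of the C1q genes, and C1q macrophages held 3409, 5554, 5336 and 10221 UMIs of the C1q genes and at most 5 of S100a8 and S100a9 (here and below, 4 values stand in 1 order, the WT libraries before the SP libraries and ND before HFD within each). With 1 library per condition no test of diet or genotype was possible. All intervals are at the 95% level and carry only the error of counting UMIs, so the spread between mice or preparations is not in them. Fewer cells of a type cannot be told apart from losses in dissociation.

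The members fell into 3 patterns over the cell classes. Il1b, Il1a, Il1rn, Il1r2, Nlrp3 and Tnf were highest in myeloid cells. Il1r1 had at most 2 UMIs per library in mononuclear phagocytes and was found in collecting duct, distal tubule, thin limb, endothelial and stromal cells, in cluster 24 and, on fewer UMIs, in T cells. Il18 was highest in podocytes, Casp1 was spread over phagocytes, lymphocytes and endothelium, and Pycard was present both in immune cells and along the distal nephron.

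**Figure D1:**
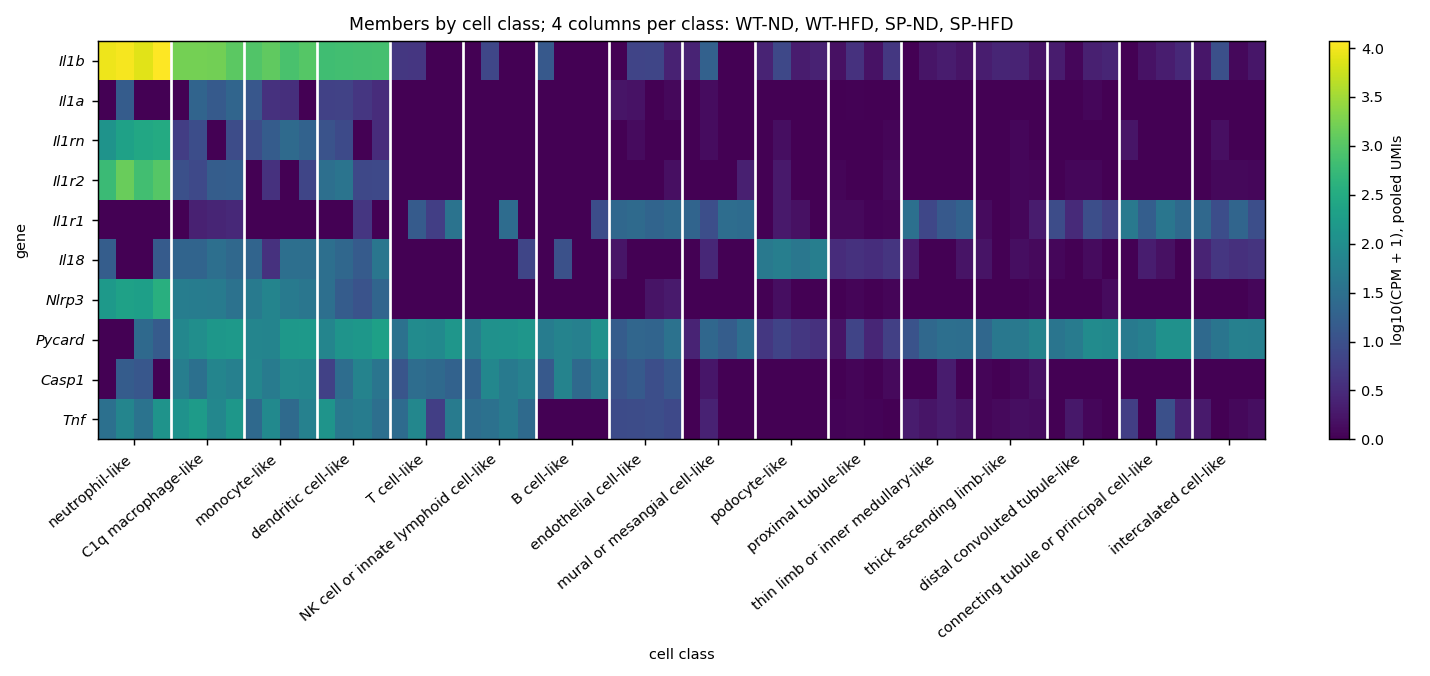
Level of each of the 10 members (rows) in 16 cell classes, each with 4 columns, WT before SP and ND before HFD from left to right. Colour gives log10(CPM + 1) of pooled UMIs, and Il1b, Il1r2, Il1rn and Nlrp3 are each brightest in neutrophils, Il18 in podocytes, while Pycard is seen across immune and tubule classes.

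The bases before the start sites of 4 members that lead these patterns are shown from RefSeq (GRCm38.p6), because the cells that hold them differ: Il1b and Tnf in myeloid cells, Il18 in podocytes, and Pycard in tubule and immune cells. Each runs 5′ to 3′ over the 250 bases before the start. For Il1b that start lies inside the gene coordinates given below, which end at 129371164, so the window overlaps them. Capitals mark every match, on either strand, to TATAAA (the TATA box), TTNNGCAA (C/EBP), GAGGAAG (PU.1) or GGGANTTTC (kappaB), and N is any base.
Il1b (chr2:129371140-129371389, minus strand): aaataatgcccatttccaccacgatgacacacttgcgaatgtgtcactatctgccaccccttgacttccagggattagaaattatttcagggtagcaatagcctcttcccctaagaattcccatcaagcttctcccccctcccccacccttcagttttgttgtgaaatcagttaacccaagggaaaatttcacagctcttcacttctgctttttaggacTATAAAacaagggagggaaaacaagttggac
Tnf (chr17:35202008-35202257, minus strand): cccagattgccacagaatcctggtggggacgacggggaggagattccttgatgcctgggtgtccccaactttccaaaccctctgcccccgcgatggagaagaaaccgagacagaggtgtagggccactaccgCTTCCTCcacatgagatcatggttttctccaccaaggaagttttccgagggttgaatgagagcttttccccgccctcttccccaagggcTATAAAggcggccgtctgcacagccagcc
Il18 (chr9:50554450-50554699, plus strand): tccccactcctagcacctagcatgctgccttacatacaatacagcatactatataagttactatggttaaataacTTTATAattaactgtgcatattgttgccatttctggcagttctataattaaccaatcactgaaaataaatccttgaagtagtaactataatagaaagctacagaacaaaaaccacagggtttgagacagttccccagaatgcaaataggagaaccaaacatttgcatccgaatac
Pycard (chr7:127993868-127994117, minus strand): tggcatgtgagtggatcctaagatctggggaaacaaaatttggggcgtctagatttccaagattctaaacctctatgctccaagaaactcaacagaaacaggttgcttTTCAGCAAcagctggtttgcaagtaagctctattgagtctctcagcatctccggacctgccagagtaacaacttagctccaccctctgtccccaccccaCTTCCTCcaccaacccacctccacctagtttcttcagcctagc
Il1b held TATAAA 31 to 26 bases before the start and Tnf held it 29 to 24 bases before. The match in Il18 (TTTATA) lay farther out, at 175 to 170 bases. Tnf and Pycard each held the PU.1 letters, as CTTCCTC, and Pycard also held TTCAGCAA, a match to the C/EBP letters. Of 32851 windows of this length, 12.4% held TATAAA, 9.56% TTNNGCAA, 10.6% GAGGAAG and 0.941% GGGANTTTC. None of the windows of the 10 members held the kappaB letters. The windows had 44.4% G or C in Il1b, 57.6% in Tnf, 35.6% in Il18 and 48.8% in Pycard, against a median of 52.4%. Such matches are a description of letters and say nothing of which factor binds.

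Il1b (ENSMUSG00000027398, chr2:129364569-129371164), the gene of the main secreted IL-1, was by far highest in neutrophils. Their 52, 33, 54 and 51 cells pooled to 9469.8 (interval 8741 to 10244), 10437 (9693 to 11224), 7869.7 (7288 to 8486) and 11883 (11109 to 12696) CPM. C1q macrophages followed at 1662, 1671, 1592 and 1126 CPM, then monocytes at 930.4, 1198, 803 and 993 CPM, and dendritic cells at 671, 694, 725 and 739 CPM. That order was the same in all 4 libraries, and the intervals of neutrophils and C1q macrophages did not overlap in any library. Neighbours overlapped in 2 places, C1q macrophages with monocytes in SP-HFD and monocytes with dendritic cells in SP-ND. Mononuclear phagocytes were more numerous (317, 275, 300 and 412 cells), and these macrophages, monocytes and dendritic cells held 61.6%, 61.4%, 66.3% and 64.7% of all Il1b UMIs, and neutrophils 34.0%, 22.2%, 29.8% and 31.2%.

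**Figure D2:**
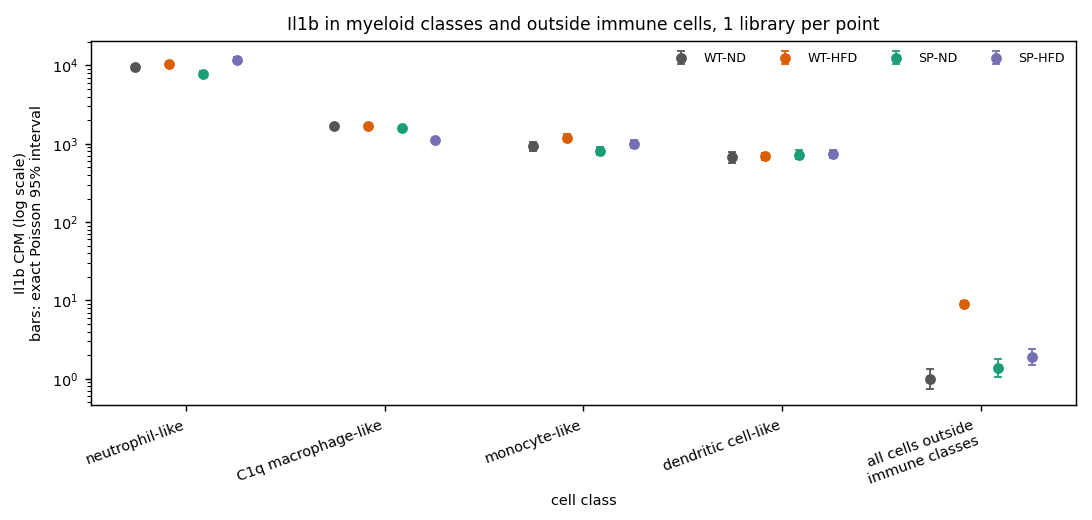
Il1b CPM in each library (4 colours), by cell class on a log axis, with exact Poisson 95% intervals as bars. Neutrophils lie between 7869.7 and 11883 CPM in every library, above C1q macrophages at 1126 to 1671 CPM, while outside the immune classes the WT-HFD library is highest at 8.97 CPM.

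Cells were also thinned to 1000 UMIs, which left out cells with fewer, so that 33, 33, 50 and 47 neutrophils remained. Of the thinned cells, 100%, 93.9%, 96.0% and 100% of neutrophils held Il1b, against 0.0626%, 0.441%, 0.131% and 0.192% of proximal tubule cells, an epithelium that served as the comparison. Unthinned, the shares were 100%, 93.9%, 98.1% and 100% of neutrophils (medians of 1218.5, 1810.0, 1534.5 and 1388 UMIs per cell) and 0.625%, 3.96%, 0.782% and 0.763% of proximal tubule cells (medians of 11051, 14744.5, 16425 and 15003 UMIs). In C1q macrophages the thinned shares were 55.4%, 55.1%, 53.2% and 42.7%. The SP-HFD macrophages thus had the lowest share as well as the lowest level.

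Between diets, Il1b in mononuclear phagocytes was level in WT, at a log2 HFD-to-ND ratio of -0.0015 (interval -0.11 to 0.11). In SP the same ratio was -0.195 (-0.29 to -0.10). Within C1q macrophages alone, SP-HFD was below SP-ND by a log2 ratio of -0.50 (-0.62 to -0.38) and below WT-HFD by -0.57 (-0.69 to -0.45). Neutrophils went the other way in SP, where HFD was above ND by 0.59 (0.45 to 0.74). Monocytes alone were higher on HFD in both genotypes, by 0.36 (0.13 to 0.60) in WT and 0.31 (0.08 to 0.53) in SP. None of these ratios reached 2-fold.

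Outside the immune classes Il1b was rare in 3 libraries and less so in WT-HFD. Those cells held 51, 526, 63 and 76 Il1b UMIs, or 0.998, 8.97, 1.38 and 1.90 CPM. In WT-HFD, 308 such cells held the 526 UMIs. Of these cells, 155 also held a UMI of a C1q gene or of S100a8 or S100a9, and they held 340 of the UMIs; among all WT-HFD cells outside the immune classes, 8.32% held such a UMI. UMIs of the C1q genes outside the immune classes were higher in the same library, at 53, 1138, 119 and 204, as were those of S100a8 and S100a9, at 183, 747, 80 and 60. The 8 C1q macrophage markers summed to 621, 727, 678 and 897 CPM there, and the 8 neutrophil markers to 146, 66.6, 93.2 and 29.9 CPM, with every marker detected but 1 neutrophil marker in SP-HFD. These sums also hold list genes that other classes express. Podocytes summed to 1685, 1980, 1611 and 1983 CPM on the C1q macrophage list with 1, 6, 2 and 4 UMIs of the C1q genes. The sums are therefore no measure of myeloid RNA. The part that myeloid RNA plays in the WT-HFD level was not tested.

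Most of these WT-HFD UMIs sat in a few clusters. Cluster 2 held 3, 179, 2 and 0 Il1b UMIs, erythroid cells 5, 153, 1 and 6, and mural cells 1, 48, 0 and 0. Of the mural UMIs, 47 were in a cluster of 373 WT-HFD cells that held 63, 21 and 38 cells of the other libraries. Intercalated cells held 3, 40, 1 and 4 UMIs, with 28 of the 40 in 1 cell. All 15 UMIs of WT-HFD podocytes came from 1 cell. Proximal tubule cells held 10, 43, 7 and 28 UMIs, or 0.514, 2.87, 0.567 and 3.60 CPM, and the 28 of SP-HFD sat in 4 cells, with 17 in 1 cell that also held a UMI of C1q, S100a8 or S100a9. The SP-HFD level in proximal tubule therefore rests largely on 1 barcode.

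Il1a (ENSMUSG00000027399, chr2:129299609-129310186), the membrane-bound and alarmin form of IL-1, was nearly absent. Its UMIs numbered 6, 26, 11 and 24 over all kept cells, and mononuclear phagocytes held 4, 18, 10 and 22 of them. C1q macrophages had 0, 14, 8 and 21 UMIs, at 19.3, 13.1 and 20.2 CPM in the libraries with any. In WT-ND, monocytes held 3 of the 6 UMIs, and neutrophils held 0, 1, 0 and 0.

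Il18 (ENSMUSG00000039217, chr9:50554700-50581841), a cytokine that drives interferon-γ in NK and T cells, was highest in podocytes, the filtering epithelium of the glomerulus. Podocyte levels were 43.6 (34.9 to 53.7), 54.5 (45.3 to 65.0), 41.0 (32.6 to 50.95) and 53.6 (44.2 to 64.4) CPM, and the 4 intervals overlapped. They carried 45.3%, 45.6%, 47.9% and 50.7% of all Il18 UMIs. Mononuclear phagocytes came next, at 22.0, 16.6, 26.1 and 28.3 CPM, and proximal tubule cells were at 2.31, 2.87, 2.43 and 3.21 CPM. After thinning, 4.37%, 3.85%, 3.95% and 4.06% of podocytes held a UMI, against 0.188%, 0.110%, 0.392% and 0.385% of proximal tubule cells. Unthinned, 14.3%, 22.98%, 20.5% and 23.3% of podocytes did, at medians of 3503, 7164.5, 6669 and 6043 UMIs, and 2.56%, 4.63%, 3.91% and 4.20% of the deeper proximal tubule cells. On HFD, podocyte Il18 lay above ND by log2 ratios of 0.32 (-0.08 to 0.74) in WT and 0.39 (-0.04 to 0.82) in SP, both within counting error. The receptor subunits were elsewhere: Il18r1 was highest in NK or innate lymphoid cells, at 146, 178, 206 and 216 CPM, followed by T cells at 57.7, 140.3, 51.4 and 121 CPM.

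**Figure D3:**
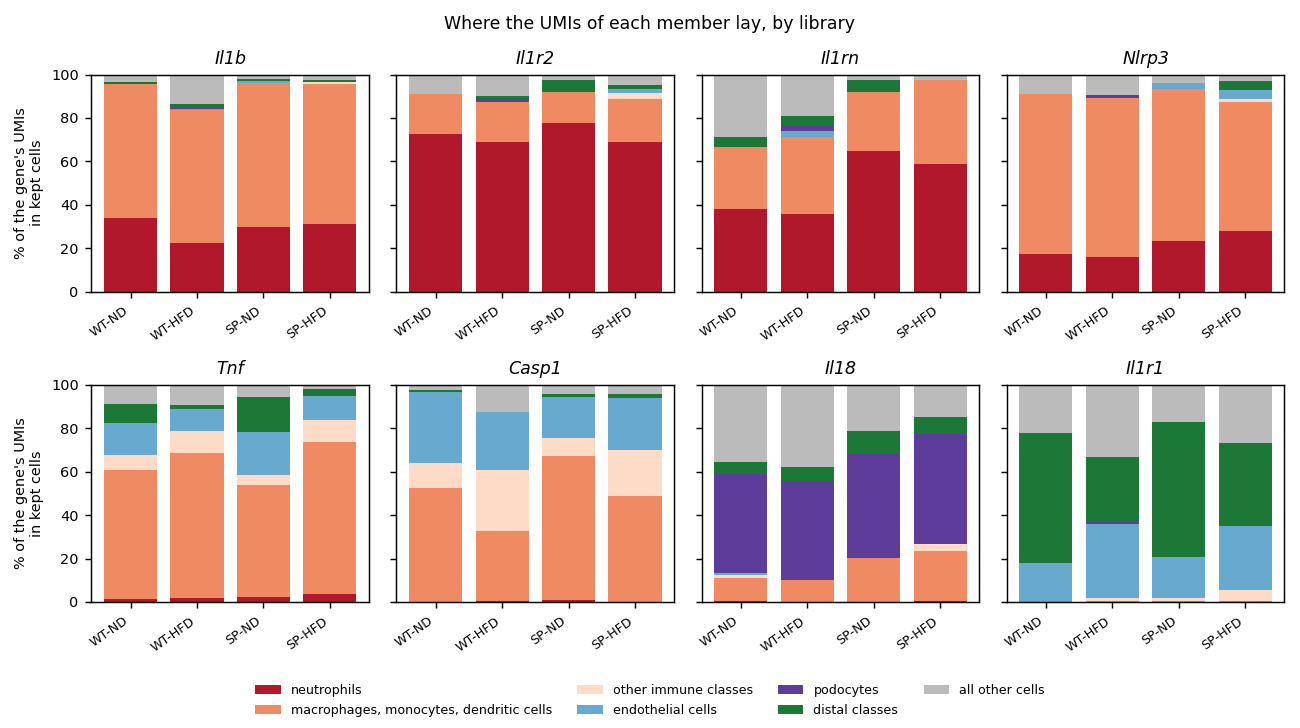
Share of the UMIs of 8 members (panels) held by each group of cell classes, in percent of the member's UMIs in all kept cells of a library, 1 stacked bar per library. Distal classes are thick ascending limb, distal convoluted tubule, connecting tubule or principal cells and intercalated cells. Phagocytes and neutrophils hold 95.6%, 83.6%, 96.0% and 95.8% of Il1b, podocytes 45.3% to 50.7% of Il18, and distal classes 59.5% and 61.9% of Il1r1 on ND but 29.8% and 38.3% on HFD.

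The antagonist and the decoy receptor were both highest in neutrophils, the cells with the most Il1b. Il1r2 (ENSMUSG00000026073, chr1:40084692-40125230) was at 608 (434 to 828), 1391 (1128 to 1697), 687 (523 to 886) and 1003 (787 to 1259) CPM. Neutrophils held 72.7%, 68.8%, 77.6% and 69.2% of its UMIs (40, 97, 59 and 74), and over the 4 libraries together the next named class, dendritic cells, was at 20.9 CPM. HFD neutrophils were higher than ND neutrophils, with a log2 ratio of 1.19 (0.65 to 1.76) in WT and 0.55 (0.03 to 1.06) in SP. The WT ratio came from the smallest neutrophil pool, 33 cells. Neutrophil quality moved with diet as well: median mitochondrial shares were 6.76%, 4.21%, 7.79% and 6.03%, and the summed level of 9 immediate early and heat shock genes was 7038, 7957, 7497 and 8699 CPM, and their part was not tested. After thinning, 39.4%, 72.7%, 40.0% and 46.8% of neutrophils held an Il1r2 UMI; in proximal tubule cells 0 of 520 to 1598 thinned cells did in any library.

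Il1rn (ENSMUSG00000026981, chr2:24336860-24351491) was at 122, 215, 279 and 312 CPM in neutrophils, from 8, 15, 24 and 23 UMIs. It pooled to 17.3 CPM in monocytes, 5.66 in C1q macrophages and 4.73 in dendritic cells. The WT-ND value was the lowest, and the ratio of SP-ND to WT-ND was 1.20 on the log2 scale with an interval of -0.002 to 2.56. Cluster 21 held 4, 4, 0 and 0 UMIs. The co-receptor Il1rap, which pairs with IL-1R1, was highest in neutrophils too, at 152, 215, 128 and 122 CPM.

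Il1r1 (ENSMUSG00000026072, chr1:40222480-40316201), the signalling receptor, lay in other cells than its ligand. Neutrophils held 0 UMIs in all 4 libraries, where a count of 0 still allows up to 3 UMIs per library, and C1q macrophages 0, 1, 1 and 2. Connecting tubule or principal cells, the collecting duct cells that move water and sodium, held it at 43.3 (33.4 to 55.3), 15.4 (10.2 to 22.4), 38.3 (29.9 to 48.4) and 23.9 (17.6 to 31.6) CPM. Intercalated cells, which secrete acid or base, were at 23.1, 8.22, 20.6 and 8.44 CPM. Distal convoluted tubule cells were at 7.89, 2.01, 8.51 and 4.84 CPM, and the neighbouring thick ascending limb at 0.315, 0, 0.198 and 1.02 CPM. In all 3 distal classes both ND libraries lay above both HFD libraries. Endothelial cells did not follow them, at 21.9, 25.1, 19.8 and 23.9 CPM with overlapping intervals. Thin limb or inner medullary cells were at 31.3, 6.45, 12.8 and 18.2 CPM, and fibroblasts at 73.0 CPM in SP-HFD from 18 UMIs in 40 cells. Over the 4 libraries fibroblasts held 24 Il1r1 UMIs, and their lowest level in a library with at least 30 such cells was 9.03 CPM. Cluster 24 was at 22.5, 22.4, 33.5 and 23.5 CPM, and T cells held 0, 4, 1 and 15 UMIs, up to 34.3 CPM in SP-HFD.

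**Figure D4:**
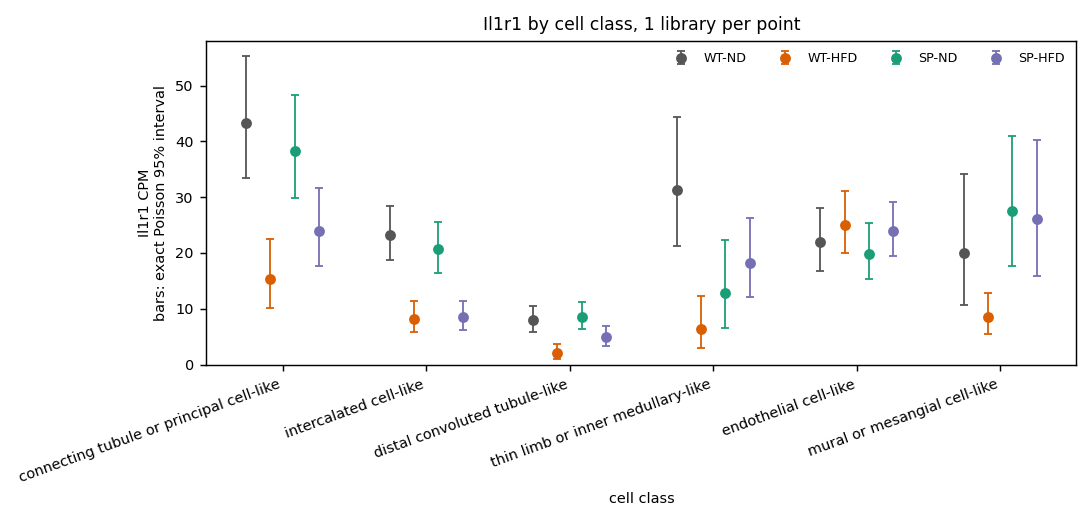
Il1r1 CPM by cell class in the 4 libraries (colours), with exact Poisson 95% intervals as bars. In connecting tubule or principal cells, intercalated cells and distal convoluted tubule both HFD libraries lie below both ND libraries, whereas the 4 endothelial values span 19.8 to 25.1 CPM.

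For Il1r1 in connecting tubule or principal cells, the HFD-to-ND log2 ratio came to -1.49 (-2.20 to -0.82) in WT and -0.68 (-1.24 to -0.13) in SP. In intercalated cells it was -1.49 (-2.08 to -0.93) and -1.29 (-1.86 to -0.74), and in distal convoluted tubule -1.98 (-3.13 to -0.97) and -0.81 (-1.52 to -0.13). Of 6 classes with enough cells and enough UMIs over the 4 libraries, Il1r1 was lower on HFD in both genotypes in 4, with both intervals below 0 in 3. It was higher in both in endothelial cells alone, where both intervals held 0. The other class of the 4 was mural cells, at 19.9, 8.49, 27.5 and 26.1 CPM, and without the mural cluster of 373 WT-HFD cells named above they were at 21.9, 17.0, 27.1 and 27.7 CPM, no longer lower on HFD in SP. Thinned to 1000 UMIs, 5.00%, 1.34%, 3.14% and 3.04% of connecting tubule or principal cells held a UMI, and in podocytes, which had 0 to 2 UMIs, 0 of 253 to 412 thinned cells did. The unthinned shares were 22.5%, 11.1%, 29.3% and 14.9% at medians of 5434, 6352, 8876 and 5837.5 UMIs, and 0%, 0.621%, 0.360% and 0% in podocytes. A thinned cell of 1000 UMIs holds less than 1 Il1r1 UMI on average at these levels, so no order was read from the SP shares, and the lower SP-HFD level rests on the pooled counts. The classes themselves took 2.24%, 2.53%, 2.99% and 4.22% of kept cells (connecting tubule or principal) and 4.72%, 4.84%, 4.57% and 6.54% (intercalated).

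Distal convoluted tubule, connecting tubule or principal cells and intercalated cells were added to the pools compared after their values had been seen. Thick ascending limb was not added. Pycard was under 2-fold there in every comparison, at log2 ratios of 0.92 (WT-HFD against WT-ND), 0.59 (SP-HFD against SP-ND), 0.98 (SP-ND against WT-ND) and 0.65 (SP-HFD against WT-HFD). In distal convoluted tubule, 2 members had the 20 UMIs over 2 libraries that were asked for, Il1r1 and Pycard, and each was set beside the share of all genes at least 2-fold apart. For WT-HFD against WT-ND 1 of the 2 was called (Il1r1, lower) and 4.62% of all genes; for SP-HFD against SP-ND 0 of 2 and 3.48%; for SP-ND against WT-ND 1 of 2 (Pycard, higher) and 2.76%; and for SP-HFD against WT-HFD 1 of 2 (Il1r1, higher) and 1.70%. In connecting tubule or principal cells the counts were 1 of 2 (Il1r1, lower) beside 8.37% of all genes, 0 of 2 beside 5.26%, 1 of 3 (Pycard, higher) beside 4.50% and 1 of 2 (Pycard, higher) beside 3.42%, in the same order. In intercalated cells they were 3 of 4 (Il1b and Il18 higher, Il1r1 lower) beside 5.75%, 1 of 3 (Il1r1, lower) beside 4.20%, 1 of 2 (Pycard, higher) beside 3.30% and 1 of 4 (Il1b, lower) beside 5.10%. Both Il1b calls there rest largely on 1 barcode, since 28 of the 40 Il1b UMIs of WT-HFD intercalated cells sat in 1 cell. The comparisons share libraries, so that they are not independent of each other, and with so few members tested the shares describe single genes.

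Of the tubule classes, connecting tubule or principal cells had the highest pooled Il1r1 level, and several genes known to respond to IL-1 or TNF were lower there on HFD in both genotypes. Of the 18 genes listed, 8 had enough UMIs in each diet comparison. In WT, 4 were at least 2-fold lower and 0 higher, beside 487 of 9386 genes lower and 299 higher, with a median log2 ratio of -1.60 against -0.12 over all genes. In SP, 5 were lower and 1 higher (Socs3), beside 311 of 9650 genes lower and 197 higher, with a median of -1.23 against -0.06. Cxcl1, a neutrophil-attracting chemokine, was at 42.6, 6.85, 55.3 and 2.49 CPM. Nfkbia, the NF-κB inhibitor that NF-κB itself turns on, was at 489, 99.9, 339 and 127 CPM. Its level on HFD differed from that on ND by -2.29 (-2.54 to -2.05) on the log2 scale in WT and by -1.42 (-1.63 to -1.21) in SP.

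Cxcl2 had 26, 0, 26 and 4 UMIs in these cells. Icam1, an adhesion molecule, was at 49.4, 10.3, 16.4 and 7.95 CPM, and the feedback inhibitor Tnfaip3 of the TNF axis list was at 49.4, 6.28, 28.4 and 13.4 CPM. Tnfaip2 was at 65.0, 22.3, 55.3 and 20.4 CPM. In each of these genes both ND libraries again lay above both HFD libraries. Cd14, a co-receptor for bacterial products, ran the other way, at 40.6, 95.3, 41.6 and 92.4 CPM. Lcn2 was at 158, 135, 151 and 204 CPM, with no common direction. Quality moved with diet in this class: the median mitochondrial share was 13.9% and 14.4% on ND but 17.1% and 16.5% on HFD. The summed level of 9 immediate early and heat shock genes, which dissociation can induce, was 8549, 5463, 6378 and 6515 CPM, lower on HFD in WT but not in SP. Their part in these differences was not tested.

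In the other class rich in Il1r1, the endothelium, the same list gave 0 genes higher and 2 of 9 lower in WT, beside 329 of 10962 genes lower (median -0.70 against -0.01 over all genes), and 0 higher and 5 of 11 lower in SP, beside 278 of 11238 (median -0.99 against -0.03). Socs3, a feedback inhibitor of cytokine signalling, was at 129, 36.7, 135 and 27.3 CPM. Sele, the adhesion molecule E-selectin, was at 7.43, 2.99, 12.0 and 4.11 CPM. Nfkbia was at 294, 453, 537 and 499 CPM and Icam1 at 48.5, 63.9, 58.9 and 60.9 CPM, without the order seen in collecting duct cells. The summed early genes were at 6433, 2969, 7169 and 2855 CPM in endothelium, lower on HFD in both genotypes, and their part was not tested either. In intercalated cells, with Il1r1 also lower on HFD, 0 of 6 listed genes were higher and 1 lower in WT, and 1 of 7 higher and 1 lower in SP, beside 5.75% and 4.20% of all genes called in either direction.

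Nlrp3 (ENSMUSG00000032691, chr11:59541569-59566955), the sensor, followed Il1b across classes. Neutrophils held it at 152, 215, 198 and 366 CPM (10, 15, 17 and 27 UMIs), C1q macrophages at 52.8, 51.1, 49.2 and 33.7 CPM and monocytes at 46.7, 69.1, 45.2 and 39.5 CPM. Cells outside the immune classes held 3, 10, 4 and 9 of its 57, 94, 73 and 96 UMIs. Mononuclear phagocytes on HFD differed from those on ND by -0.12 (-0.69 to 0.47) on the log2 scale in WT and by -0.31 (-0.88 to 0.27) in SP, within counting error.

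Casp1 (ENSMUSG00000025888, chr9:5298517-5307281), the protease, was at 49.5, 33.3, 72.9 and 56.5 CPM in mononuclear phagocytes. Both SP libraries lay above both WT libraries there, by log2 ratios of 0.56 (0.03 to 1.10) on ND and 0.76 (0.27 to 1.27) on HFD. On ND, the intervals of C1q macrophages (0.36, -0.39 to 1.13) and monocytes (0.16, -0.69 to 1.06) held 0, and dendritic cells had 19 UMIs in SP-ND and 1 in WT-ND. On HFD, C1q macrophages differed by 0.95 (0.23 to 1.72), and the monocyte and dendritic cell intervals held 0. Endothelial cells held 9.91, 13.4, 8.50 and 12.1 CPM and, by their number, 18.9% to 32.6% of all Casp1 UMIs. Neutrophils had 0, 1, 1 and 0 Casp1 UMIs and 0, 0, 2 and 1 of Pycard, beside 623 to 877 of Il1b. In these 33 to 54 cells per library, at medians of 1218.5 to 1810.0 UMIs, low levels of either were not detectable. Other genes of the machinery lay elsewhere: Nek7, an NLRP3 partner, was highest in endothelial cells, at 175, 169, 163 and 156 CPM, and Ctsb, a lysosomal protease, in monocytes, at 1137, 1405, 1139 and 1414 CPM.

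Pycard (ENSMUSG00000030793, chr7:127991373-127993867), the ASC adaptor, was higher in SP than in WT libraries in tubule and immune classes alike. In distal convoluted tubule it was at 37.9, 47.9, 90.4 and 83.7 CPM. Connecting tubule or principal cells had 46.7, 55.9, 113 and 113 CPM, intercalated cells 23.6, 37.3, 57.8 and 55.6 CPM, and thick ascending limb cells 21.7, 41.0, 42.8 and 64.6 CPM. The immune cells showed the same order, with C1q macrophages at 77.0, 102, 141 and 159 CPM and monocytes at 70.1, 69.1, 146 and 158 CPM. On each diet the SP library was above its WT counterpart in 11 of 12 classes with enough cells and enough UMIs over the 4 libraries, with both intervals above 0 in 7. Proximal tubule was the exception, on HFD. Between diets, Pycard was higher on HFD in both genotypes in 8 of the 12 classes, with both intervals above 0 in 3. Proximal tubule and podocytes held little, at 0.669, 5.94, 1.70 and 4.88 CPM and 3.51, 5.71, 3.54 and 2.85 CPM. Plasma cells had the highest level, at 399.6, 273 and 275 CPM in WT-ND, WT-HFD and SP-HFD (SP-ND had 1 such cell), and there the SP-HFD and WT-HFD values were close.

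**Figure D5:**
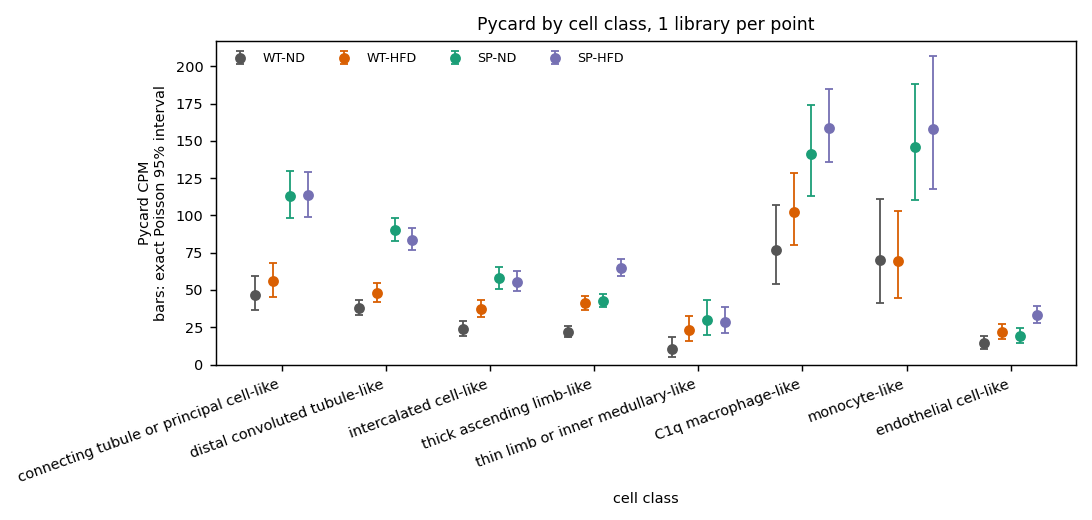
Pycard CPM by cell class in the 4 libraries (colours), with exact Poisson 95% intervals as bars. In distal convoluted tubule, connecting tubule or principal cells, intercalated cells, thick ascending limb, C1q macrophages and monocytes each SP library lies above the WT library of the same diet.

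The log2 ratio of SP to WT for Pycard was 1.25 (1.03 to 1.48) on ND and 0.80 (0.58 to 1.03) on HFD in distal convoluted tubule. In connecting tubule or principal cells it was 1.28 (0.88 to 1.69) and 1.02 (0.67 to 1.38), in intercalated cells 1.29 (0.94 to 1.65) and 0.57 (0.29 to 0.86), and in thick ascending limb 0.98 (0.70 to 1.27) and 0.65 (0.45 to 0.86). The median log2 ratio over all genes lay between -0.06 and 0.11 in these comparisons. Genes at least 2-fold higher in SP on both diets made up 0.105% of the genes tested in thick ascending limb, 0.0375% in distal convoluted tubule, 0.110% in connecting tubule or principal cells and 0.0561% in intercalated cells. Pycard was among them in connecting tubule or principal cells alone, since its HFD ratio was under 2-fold in the other 3 classes, where its HFD ratio ranked 327 of 11401 genes in thick ascending limb, 185 of 10674 in distal convoluted tubule and 464 of 10687 in intercalated cells. Pycard and Slc5a2 (chr7:128265683-128272430) are neighbours on the chromosome, with 271815 bases between them (GRCm38.p6). Within 2 Mb on each side of Slc5a2, 63 to 77 genes could be compared per class. Of these, Pycard was the 1 gene at least 2-fold higher in SP on both diets, in connecting tubule or principal cells, and Slc5a2 the 1 gene lower on both, in the other 3 classes. The study describes SGLT2 as confined to the proximal tubule, and the source of the Slc5a2 UMIs in those 3 classes was not tested. An effect of the allele itself, of variants linked to it and of the single library per condition cannot be told apart in this design.

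Tnf (ENSMUSG00000024401, chr17:35199367-35202007), the other early cytokine of NF-κB, was highest in C1q macrophages when the 4 libraries were pooled, at 119, 168, 75.5 and 140.5 CPM (54, 122, 46 and 146 UMIs); in WT-ND dendritic cells were above them. Both HFD libraries lay above both ND libraries, by log2 ratios of 0.50 (0.03 to 0.99) in WT and 0.90 (0.41 to 1.41) in SP. Monocytes showed that order too, at 23.4, 86.4, 25.1 and 60.7 CPM, and so did T cells, at 25.3, 75.3, 4.67 and 48.0 CPM from 7, 22, 1 and 21 UMIs. Dendritic cells did not, at 126, 41.8, 50.8 and 29.8 CPM. Of 4 classes with at least 50 cells in every library and enough UMIs, Tnf was higher on HFD in both genotypes in 3, and endothelial cells, at 7.43, 7.77, 8.50 and 7.004 CPM, made up the rest. Dendritic cells, which ran the other way, were not counted because WT-ND had 45 of them. Connecting tubule or principal cells held 7, 0, 16 and 3 Tnf UMIs, more on ND in both genotypes, like the response genes of that class. The receptor Tnfrsf1b was highest in monocytes, at 284, 380.1, 316 and 291 CPM, and Tnfrsf1a in neutrophils, at 213, 272, 163 and 257 CPM.

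Over the pools fixed for comparison, few members stood at least 2-fold apart. In mononuclear phagocytes, 1 of 9 tested members was called for WT-HFD against WT-ND (Il1a, higher, 4 and 18 UMIs) beside 9.84% of all genes. None of 9 was called for SP-HFD against SP-ND (0 members, 5.78% of all genes), 0 of 7 for SP-ND against WT-ND (6.39%) and 0 of 9 for SP-HFD against WT-HFD (4.76%). In neutrophils, 0 of 4 members were called for SP-HFD against SP-ND beside 9.20% of all genes, and 1 of 4 (Il1rn, higher) for SP-ND against WT-ND beside 11.8%. With 33 neutrophils, WT-HFD was under the minimum of 50 cells and was not compared.

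In endothelial cells the members tested were Il1r1, Casp1, Pycard, Tnf and, where it had the UMIs, Il1b. Il1b was called in 3 of the 4 comparisons, on 0, 20, 19 and 6 UMIs: higher in WT-HFD than WT-ND (1 of 5 members, 4.75% of all genes), lower in SP-HFD than SP-ND (1 of 5, 3.88%) and lower in SP-HFD than WT-HFD (1 of 5, 2.36%). No member was called for SP-ND against WT-ND (0 of 4, 4.66%). A single WT-HFD cell held 11 of the 20 UMIs and a single SP-ND cell 9 of the 19.

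In stromal cells (fibroblasts and mural cells together), 3 of 3 members were called for WT-HFD against WT-ND (Il1b and Pycard higher, Il1r1 lower) beside 24.0% of all genes. The other counts were 0 of 2 for SP-HFD against SP-ND (5.48%), 1 of 2 for SP-ND against WT-ND (Pycard, higher, 8.78%) and 2 of 3 for SP-HFD against WT-HFD (Il1r1 higher, Il1b lower, 24.8%). The large shares in the comparisons with WT-HFD came with the mural cluster described above, which held 373 of the 549 stromal cells of that library. Without it, 7.35% of all genes were called for WT-HFD against WT-ND and 6.88% for SP-HFD against WT-HFD, the members called were 0 of 1 and 2 of 2 (Il1r1 and Pycard, both higher), Il1b had 0, 1, 0 and 0 UMIs, and Il1r1 was at 21.8, 15.5, 23.4 and 39.2 CPM. Pycard, at 3.11, 9.93, 17.8 and 27.9 CPM without that cluster, kept both SP libraries above both WT libraries.

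Other IL-1 family ligands were found in few classes. Il36g was highest in neutrophils, at 167, 172, 140 and 190 CPM from 49 UMIs in all. Il33, an alarmin kept in the nucleus, was at 7.43, 13.7, 14.2 and 21.3 CPM in endothelial cells, higher on HFD by log2 ratios of 0.89 (0.11 to 1.71) in WT and 0.59 (0.05 to 1.14) in SP. The receptor for IL-33, Il1rl1, was highest in NK or innate lymphoid cells, at 64.1, 146, 71.8 and 98.9 CPM. Of the signalling genes below the receptors (Myd88, Irak1, Traf6 and others), at most 1 of 9 tested in mononuclear phagocytes and 0 of 11 in endothelium were 2-fold apart in any of the 4 comparisons, a share near that of all genes given above. Cxcl2 was at 2356, 1305, 2782 and 4485 CPM in neutrophils and at 1543, 1616, 1089.5 and 1354 CPM in C1q macrophages, so that both classes richest in Il1b also had the highest levels of this chemokine.

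The genes whose level followed a member most closely were sought over 65 pools of class and library, among the 8041 genes that reached 50 CPM in some pool (Pearson r of log2(CPM + 1), a description, since pools of a library share its depth). For Il1b they were Ptafr (r = 0.972), Cd33, Ccl6, Pirb and F630028O10Rik. For Il1rn they were Hk3 (r = 0.947), Clec4e, Csf3r, Clec4d and Fpr1, and for Il1r2 P2ry13 (r = 0.920), Il23a, Cd101, Dhrs9 and Trpm2. For Il18 they were Ptpro (r = 0.810), Abca9, Tlr7 and Cyp27a1. For Il1r1 they were Hspg2 (r = 0.798), Gprc5b, Id3, Hoxb5 and Cav1, and its top value was the lowest among these 5 members.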

How the data were processed

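Whole kidneys of 4 conditions were dissociated and run as 4 droplet libraries (Chromium 3′ v3.1), 1 library per condition, grouped by their titles; titles without HFD were taken as ND. The deposited values are raw UMI counts, 1 matrix of genes by barcodes for each library, from the authors' run of Cell Ranger against mm10. The file headers name version 6.1.2 and the submitters' processing notes 2.1.1, and neither was settled here. No barcode had fewer than 500 UMIs. There were 0 unused columns of per-sample values. Il1b, Il1a, Il1r2, Il18 and Pycard overlap genes on the opposite strand, and Il1r1 and Il1r2 genes on the same strand (8 overlapping genes for 6 members); the strand setting of the counting is not given in the sources used here, so reads in those overlaps are uncertain.

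Kept barcodes had 200 to 5000 genes with a UMI and a mitochondrial share below 50%. A score of simulated doublets (50 neighbours, 30 components, 2000 variable genes) removed 0.8% of barcodes per 1000 cells, 365 to 945 per library. Cells were integrated by canonical correlation and clustered (50 components, resolution 0.5) in Seurat 5.3.0 (R 4.3.3), without the members and pathway genes among the features. Clusters took the name of the 1 of 21 marker lists with the highest mean log2 ratio, if that was at least 1 and 3 markers were detected. A cluster stayed unnamed where another list had more markers among its top genes, or at low depth with no own marker among them. Cells of immune clusters were clustered again on their own and took the name of that second cluster. Pooled UMIs gave CPM with exact Poisson intervals, ratios had exact conditional binomial intervals, and shares exact Clopper-Pearson intervals (scipy 1.17.1, pandas 2.3.3). A gene was called at 2-fold or more in pools of at least 50 cells and at least 20 UMIs over both libraries. For calls and alternatives, a library at 0 UMIs was set to a floor of 3. Ratios within a class asked for at least 30 cells in both libraries. Directions over classes asked for at least 50 cells in each of the 4 libraries and a minimum of UMIs summed over them. On simulated counts with a 4-fold change in 200 genes (WT-HFD against WT-ND, endothelial cells, 10924 genes), 99.5% of the changed and 1.43% of the unchanged genes were called, with counting error as the only error. The changed genes were drawn only from genes well above the 20 UMIs asked for a call. The 99.5% therefore does not describe calls on members near that limit. The members and lists were chosen with earlier results of these data known. Pathway genes were named where a class reached 200 CPM or a ratio passed 2-fold with an interval apart from 0, at most 5 per list, and others that are described were picked after their values were seen. A gene that met the rule for the closest patterns is not reported here. Promoter windows came from RefSeq (GRCm38.p6). Alternatives covered mitochondrial, UMI and doublet limits, integration, resolution, scaling, filters and ambient RNA.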

Additional observations from a re-analysis of the deposited data

How the results depend on the processing

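No paired analysis was possible because each condition had 1 library. Over the 4 pools fixed first, member and pool pairs at least 2-fold apart numbered 5 for WT-HFD against WT-ND, 1 for SP-HFD against SP-ND, 2 for SP-ND against WT-ND and 3 for SP-HFD against WT-HFD. With no filter on low counts they were 11, 7, 9 and 7, and with at least 50 UMIs 1, 0, 0 and 1. WT-HFD against WT-ND gave 2 without integration, 3 with doublets kept and no integration, 2 at resolution 1.0 and 2 without the mural cluster (the last chosen after seeing the data). SP-ND against WT-ND gave 1 under 30% mitochondrial UMIs, in cells of 1000 UMIs or more, with 1.6% doublets removed and at resolution 1.0.

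Il1b ratios in stromal cells changed sign: WT-HFD against WT-ND went from 3.51 to -1.74 at resolution 1.0 and to -2.08 without the mural cluster. SP-HFD against WT-HFD went from -2.45 to 1.37 and 1.49. Without that cluster WT-HFD held 1 UMI and WT-ND and SP-HFD held 0. A count of 0 was set to 3 while the 1 was kept, so those signs came from this floor and show no reversal of the counts. The counts at resolution 1.0 are not given here, so no reversal was read from them. Il1b in neutrophils, SP-HFD against WT-HFD, went from 0.19 to -0.03 with doublets kept and no integration, and to -0.08 as a mean over cells; in mononuclear phagocytes the same comparison went from -0.30 to 0.04 with doublets kept and no integration. The cause was not tested. Of 620 log2 ratios under alternatives, 7 changed sign, in 4 of 62 results, and 594 moved by less than their counting error.

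The share of Il1b UMIs in neutrophils and mononuclear phagocytes moved with these settings as follows. In WT-ND it was 96.7% under 30% mitochondrial UMIs, 97.1% with 1.6% doublets removed and 96.8% without integration. It was 92.6% there with doublets kept and no integration, 93.8% at resolution 1.0 and 97.8% after ambient subtraction. In WT-HFD it was 88.6% under 30% mitochondrial UMIs, 87.3% with 1.6% doublets removed and 87.7% after ambient subtraction. In SP-ND it was 97.2% without integration, 95.1% with doublets kept and no integration and 98.1% after ambient subtraction. In SP-HFD it was 96.85% with 1.6% doublets removed, 94.97% with doublets kept and no integration, 94.8% at resolution 1.0 and 98.3% after ambient subtraction. Depth limits Il1a, Il1rn and all members in neutrophils, whose cells held medians of 1218.5 to 1810.0 UMIs.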

Other observations

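Other genes of the pathways lay in classes not described above. Nlrp6, an epithelial inflammasome sensor, was highest in proximal tubule cells, at 48.5, 53.3, 44.0 and 52.0 CPM (4 values in the order used above), and so was Sigirr, an inhibitory receptor of the IL-1 family, at 65.9, 47.9, 65.6 and 45.6 CPM. For Sigirr both HFD libraries lay below both ND libraries. Il18bp, which binds and blocks IL-18, was highest in endothelial cells, at 10.97, 13.1, 9.76 and 13.5 CPM. Txnip, a thioredoxin inhibitor and NLRP3 partner, was at 1190.5, 1036, 1396 and 1237 CPM there.

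Neutrophils also led in several genes that respond to IL-1 or TNF. Nfkbia was at 2295, 1434, 2549.5 and 2886 CPM in them, and Ptgs2, which makes prostaglandins, at 714, 1032, 326 and 854 CPM. Cd14 was at 1307, 2179, 885 and 1721 CPM, with both HFD libraries above both ND libraries. Ltb, a TNF family ligand, was highest in NK or innate lymphoid cells, at 494, 882, 816 and 933 CPM. Il36rn, the antagonist of IL-36, was highest in intercalated cells, at 4.53, 8.00, 5.90 and 13.35 CPM. These genes were picked after their values were seen, and none of these differences was tested.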
